A study of Mus musculus with 115 samples.

Results

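The transcripts of 9 genes of brown and beige fat, Ucp1, Cidea, Cox8b, Cox7a1, Elovl3, Dio2, Ppargc1a, Prdm16 and Cpt1b, were followed in inguinal adipose tissue of mice that differed in gonad, sex chromosomes and hormone. They were chosen by gene symbol in the array table, where 10 of 25697 probes carry these symbols (9 of 18120 symbols, with a pair of probes for Cpt1b). All mice were on a C57BL/6J background, in a model that separates gonad type from sex chromosomes and in which the Y chromosome (written Y-) lacks the testis-determining gene Sry, and Sry may be carried as a transgene instead. XX and XY- mice develop ovaries, and XXSry and XY-Sry mice develop testes. Every mouse, controls included, was gonadectomised at 75 days of age and given a capsule at the same time, which was blank (B) or held testosterone (T, 5 mM) or estradiol (E, 50 µg). Tissue was taken 3 weeks later from mice housed at 23 °C. Inguinal fat was read on 55 arrays in 12 groups of 3 to 5 (3 in XX B, 4 each in XY-Sry B, XX T and XXSry E, and 5 elsewhere), and liver on 60 arrays in 12 groups of 5. The labels do not say that each array is a mouse of its own, so p-values measure the spread between these samples.

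Brown adipocytes burn fatty acids to make heat, and beige adipocytes with the same programme can appear within inguinal fat, above all in the cold. Noradrenaline raises cyclic AMP in these cells, which releases fatty acids and switches on Ucp1, whose protein lets protons leak back across the inner mitochondrial membrane. Ppargc1a and Prdm16 are coregulators of this programme, Dio2 makes the active form of thyroid hormone, Cidea and Elovl3 act on lipid droplets and on fatty acid elongation, and Cpt1b brings fatty acids into mitochondria. Cox8b and Cox7a1 are subunit forms of cytochrome c oxidase that heart and skeletal muscle also use, as muscle does Cpt1b.

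Promoters were looked up because Ucp1 and Ppargc1a were both lower under estradiol, as shown further on. RefSeq's promoter table held 6 of the 9 genes (Ucp1, Ppargc1a, Cox8b, Cox7a1, Dio2 and Prdm16). The 250 bases before the gene start were searched on both strands for the full consensus estrogen response element, a nuclear receptor half-site (AGGTCA, of which the full element holds all but the first base) and a cyclic AMP response half-site (TGACG). Both sequences are given 5′ to 3′ on the gene's strand, from build GRCm38.p6, with the matches in capitals. Ucp1 is on the plus strand at chr8:83290098-83290347, and Ppargc1a on the minus strand at chr5:51567726-51567975.
Ucp1: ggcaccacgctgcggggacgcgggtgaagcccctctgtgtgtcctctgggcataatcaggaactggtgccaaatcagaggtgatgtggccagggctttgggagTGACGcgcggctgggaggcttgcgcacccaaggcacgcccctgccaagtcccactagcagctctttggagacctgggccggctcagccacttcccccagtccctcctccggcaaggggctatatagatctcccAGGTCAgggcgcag
Ppargc1a: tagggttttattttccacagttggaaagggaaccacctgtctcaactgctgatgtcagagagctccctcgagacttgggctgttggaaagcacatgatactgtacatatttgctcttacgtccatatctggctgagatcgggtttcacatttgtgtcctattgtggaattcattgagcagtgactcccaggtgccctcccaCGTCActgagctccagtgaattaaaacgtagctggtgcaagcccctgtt
The Ucp1 window held TGACG from 147 to 143 bases before the start and AGGTCA from 14 to 9 bases before it. The Ppargc1a window held TGACG on the opposite strand, from 49 to 45 bases before the start. Among all 32851 promoters of the same length, 17.8% held TGACG, 14.0% held AGGTCA and 0.0639% held the full element. None of the 6 windows held the full element, and Cox8b, Cox7a1 and Prdm16 held none of the 3 motifs, while Dio2 held TGACG on both strands. A match describes these letters and shows no binding.

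Values below are log2 intensities after background correction and normalisation, a scale on which a probe without signal lies near 4.6. A probe was called detected on an array when its deposited detection p-value was under 0.01. Of the 10 probes, those of Cidea, Cox8b and Cox7a1 were detected on all 55 fat arrays. Ppargc1a was detected on 51, the Cpt1b probes ILMN_1227666 and ILMN_2709240 on 51 and 35, Ucp1 on 20 and Elovl3 on 1. Dio2 and Prdm16 were detected on no fat array. Because 3 detected arrays were required for testing, 7 probes of 6 genes were tested with 14636 probes in all, and Elovl3, Dio2 and Prdm16 were not. Several fat arrays stood apart, and they are named first. XX E replicate 1 is labelled estradiol in its title and testosterone in its agent field, and was kept as estradiol. Greb1, an estrogen target gene, read 9.22 on it, within the estradiol arrays (7.17 to 9.30) and above every testosterone (at most 5.96) and blank array (at most 6.40). Sex chromosome markers lay between the levels of the labelled genotypes on 4 fat arrays. The Y-linked Eif2s3y read 6.41 and 6.51 on XXSry B replicates 3 and 4 and 5.83 on XX T replicate 2, above the other arrays labelled XX or XXSry (at most 5.24) and below those labelled XY- or XY-Sry (8.19 or more). Xist read 6.11 on XY-Sry T replicate 1, against 4.73 to 5.09 in the rest of its group. Without these 4 arrays, 4 instead of 5 of the member calls for estradiol minus blank were made, as Cpt1b ILMN_2709240 was lost (adjusted p = 0.0585), and the counts for the other hormone contrasts were the same. The tissue itself carried its labelled markers, since all 7 adipocyte genes listed (such as Adipoq, Fabp4 and Plin1) passed the filter, and their mean centred level ran from -0.997 to 0.60 over the arrays. RNA of other tissue varied more: the centred level of 20 skeletal muscle probes (16 of 18 genes listed, with Myh7 and Mylk2 not passing the filter) ran from -4.43 in XY- E replicate 2 to 2.91 in XY-Sry T replicate 2. That of liver genes reached 6.64 in XY-Sry T replicate 1.

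Ucp1, the uncoupling protein itself, was the member most unequal between arrays of the same group, and it was not detected under estradiol. With blank capsules, XX arrays read 4.62, 6.80 and 7.61, XY- arrays 7.68, 10.12, 4.82, 13.18 and 10.09, XXSry arrays 4.75, 7.54, 4.82, 9.62 and 9.15, and XY-Sry arrays 8.31, 5.79, 6.78 and 8.03. Ucp1 was detected on 12 of these 17 arrays, and every genotype held both a detected and an undetected array. The highest reading, XY- B replicate 4, corresponds to a deposited intensity of 12681, against 115.3 in the lowest blank array. With testosterone, XX arrays read 4.58, 10.80, 6.93 and 6.65, XY- arrays 10.71, 12.40, 4.70, 4.87 and 5.02, and XY-Sry arrays 5.18, 6.89, 6.84, 5.38 and 6.02. All 5 XXSry T arrays lay between 4.71 and 5.24 with none detected, so that 8 of 19 testosterone arrays detected Ucp1. With estradiol, XX arrays read 4.96, 4.93, 5.75, 4.91 and 5.41, XY- arrays 5.02, 5.45, 4.99, 5.50 and 5.24, XXSry arrays 4.86, 4.59, 4.87 and 5.41, and XY-Sry arrays 4.65, 4.74, 4.66, 5.44 and 5.80. None of the 19 estradiol arrays detected it, so there the level is only bounded from above. In each genotype the highest estradiol array read at or above the lowest blank array, so the ranges of estradiol and blank overlapped at the floor in all 4.

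The mean of Ucp1 was 7.63 ± 2.34 (SD, n = 17) with blank capsules, 6.40 ± 2.35 (n = 19) with testosterone and 5.11 ± 0.37 (n = 19) with estradiol. For a bound, each array of the dimmer group was set to the dimmest signal counted as above background. This was the lowest signal of a probe well above background or the probe's own value, whichever is higher. On this basis the Ucp1 mean was 3.32-fold lower with estradiol than with blank. Undetected arrays of the brighter group kept their measured values, and Ucp1 was detected on 12 of 17 blank arrays. The Ucp1 bounds therefore concern the dimmer level only. They take no account of the spread between arrays and are not minimum folds. By genotype the bound was 10.3-fold lower in XY-, 2.40 in XY-Sry, 2.34 in XXSry and 1.38 in XX. Ucp1 was detected there on 4 of 5, 3 of 4, 3 of 5 and 2 of 3 blank arrays. Testosterone against blank in XXSry gave a bound of 2.11-fold lower, with the same 3 of 5 blank arrays detected. Because Ucp1 passed the filter only through blank and testosterone arrays, estradiol differences are given as these bounds, with no fitted size. The fit over all probes, with the 4 genotypes weighted equally, called estradiol lower than blank (adjusted p = 0.00334 by limma, Benjamini-Hochberg over all tested probes). The estradiol mean was lower in 4 of 4 genotypes. This p sets blank arrays against estradiol arrays at the floor. It rests on 1 SD shared by all groups, although the SD within groups was 2.31 with blank and 0.39 with estradiol. With slide as a fixed block estradiol minus blank was not called (adjusted p = 0.0607). Against testosterone, where 8 of 19 arrays detected Ucp1, the bound was 1.41-fold lower with estradiol, and the difference was not called (adjusted p = 0.109). Testosterone minus blank was -1.04 with undetected arrays at their measured values (95% interval -2.24 to 0.16, adjusted p = 0.367), not called. Among the 7 groups with a detected array, means ran from 9.18 in XY- B to 6.06 in XY-Sry T, and no neighbours in that order differed by more than the larger SD of their pair. The other 5 groups, all those given estradiol and XXSry T, have no order.

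Cidea, a protein of the lipid droplet surface that promotes droplet fusion, was detected on every array and was lower with estradiol in every genotype. With blank capsules XX arrays read 10.36, 11.59 and 12.29, XY- arrays 11.07, 12.49, 10.64, 13.77 and 12.27, XXSry arrays 11.33, 12.07, 11.64, 12.83 and 12.18, and XY-Sry arrays 12.17, 12.36, 11.89 and 12.62. With estradiol XX arrays read 7.58, 9.46, 7.04, 7.39 and 8.90, XY- arrays 9.32, 9.47, 11.77, 10.04 and 10.33, XXSry arrays 7.56, 9.72, 9.85 and 8.96, and XY-Sry arrays 7.74, 9.48, 9.70, 8.92 and 8.93. Of the 19 estradiol arrays, 18 lay below the lowest of the 17 blank arrays, and the exception was XY- E replicate 3 at 11.77. The ranges of estradiol and blank did not overlap in 3 of 4 genotypes. Testosterone arrays lay between, from 9.23 over a median of 10.80 to 13.04, and overlapped both. Estradiol minus blank was -2.87 ± 0.33 (SE), or 7.33-fold lower (adjusted p = 3.32e-09 by limma). Of the 14 alternative ways of processing, the smallest difference was -2.50, from the fit with slide and the skeletal muscle score, and the call was kept in each. Estradiol was also below testosterone by 3.37-fold (-1.75, adjusted p = 4.89e-05). Testosterone minus blank was -1.12 ± 0.33, or 2.17-fold lower (adjusted p = 0.0336), but the slides that held both capsules gave averages of 0.01 (slide 3) and -1.94 (slide 6), over genotypes that only partly matched. The 3 pairs of like genotype with 1 array of each capsule on these slides, all XX or XY-, gave 0.19, -0.42 and -4.50. XXSry on slide 3 and XY-Sry on slide 6 had more than 1 blank array and were not paired. Over all slides, every testosterone array lay below every blank array of its genotype in 2 of 4 genotypes. The testosterone call was lost in 5 of the 14 alternatives, slide as a fixed block among them (-0.95, adjusted p = 0.271). It was also lost without any 1 of 9 arrays, which are named with the limits.

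Ppargc1a, the coactivator that drives mitochondrial biogenesis, was lower with estradiol and did not move detectably with testosterone. Blank arrays ran from 6.82 over a median of 7.60 to 8.90, testosterone arrays from 6.49 over 7.87 to 9.22, and estradiol arrays from 5.28 over 6.50 to 7.47. Of the estradiol arrays, 11 of 19 lay below every blank array, and 4 of 19 did not detect the transcript. Estradiol minus blank was -1.20 ± 0.23 (2.30-fold lower, adjusted p = 0.000111) and estradiol minus testosterone -1.22 ± 0.22 (adjusted p = 6.99e-05). Testosterone minus blank was 0.02, with a 95% interval of -0.44 to 0.47. Without background correction the estradiol difference was -0.62 (adjusted p = 0.000449). All 4 estradiol group means (6.33 to 6.70) lay below those of the other groups (7.46 to 7.93). In that order only the step from XX B to XX E (0.77) exceeded the larger SD of its pair (0.76).

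Cox8b, an oxidase subunit, was bright. Its SD within groups (0.63) was the smallest of the 7 tested member probes, though above the median over all tested probes (0.42). Blank arrays ran from 13.11 over a median of 13.73 to 14.21, testosterone arrays from 11.78 over 12.97 to 14.06, and estradiol arrays from 11.52 over 12.94 to 13.78. The blank arrays sat close together at the top, with 12 of 19 estradiol and 11 of 19 testosterone arrays below all of them. Estradiol minus blank was -0.90 ± 0.21 (1.86-fold lower, adjusted p = 0.00123). Testosterone minus blank was -0.65 ± 0.21 (adjusted p = 0.0625), not called. Estradiol minus testosterone was -0.25 (-0.64 to 0.15), which does not show that the hormones act alike on it. Cox7a1, the other subunit, spread much more: from 9.92 to 13.35 with blank, 7.89 to 14.01 with testosterone and 8.56 to 12.81 with estradiol. Its estradiol difference was -1.07 ± 0.53 (adjusted p = 0.157), not called. Cpt1b, which imports long-chain fatty acids into mitochondria, gave -1.29 ± 0.46 (adjusted p = 0.0382) with probe ILMN_2709240 and -1.03 ± 0.53 (adjusted p = 0.184) with ILMN_1227666, so 1 of its 2 probes was called. ILMN_2709240 was detected on 15 of 17 blank arrays but on 6 of 19 estradiol arrays, so its fitted size rests largely on undetected estradiol arrays. ILMN_1227666 was detected on 17 of 17 and 16 of 19. The call of ILMN_2709240 was lost in 9 of 14 alternatives, slide as a fixed block among them (-0.98, adjusted p = 0.258), and without any 1 of 15 arrays.

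Set beside all probes, 5 of the 7 tested member probes (5 of 6 genes) were called lower with estradiol than with blank and none higher, while 10.1% of the 14636 tested probes were called lower and 20.5% either way. The median fitted difference of the 7 was -1.20, against -0.02 over all tested probes. Without Ucp1, which had no detected estradiol array, 4 of 6 were called and the median was -1.14. For testosterone minus blank 1 of 7 was called lower (2.59% of all probes lower, 4.75% either way), with a median of -0.01 against -0.02. For estradiol minus testosterone 3 of 7 were called lower (7.76% of all lower, 17.3% either way), namely Cidea, Ppargc1a and Cpt1b ILMN_2709240 (-1.29, adjusted p = 0.0359). The last was detected on 14 of 19 testosterone and 6 of 19 estradiol arrays. Its call was lost in 7 of 14 alternatives, down to -0.28 (adjusted p = 0.640) with slide and the muscle score, and without any 1 of 16 arrays. In 10 pairs of like genotype and slide, estradiol was below testosterone in 9 for Cidea, 8 for Ppargc1a and 5 for Cpt1b ILMN_2709240 (median -0.11). The skeletal muscle probes had a median of -1.54 in this contrast, with 1 of 20 called lower, and their part in the result was not tested beyond the covariate fits. These contrasts share arrays and are not independent of one another. With slide as a fixed block 3 of 7 remained called for estradiol minus blank and 0 for testosterone minus blank, while the shares above are from the fit without slide. In bulk tissue, fewer cells of a type and less RNA per cell cannot be told apart.

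**Figure D1:**
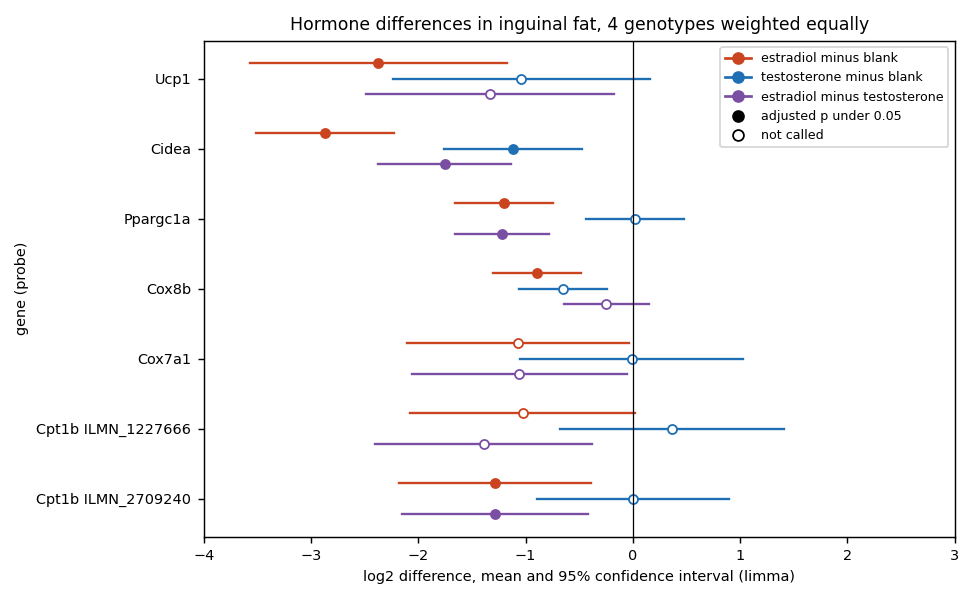
Fitted log2 differences between capsules for the 7 tested probes in inguinal fat, with 95% confidence intervals from limma and filled points where the adjusted p was under 0.05. All 7 estradiol minus blank differences lie below 0, from -2.87 for Cidea to -0.90 for Cox8b, and those of Ucp1 with estradiol are fits to undetected arrays, for which only the bounds in the text hold.

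Within a genotype fewer calls were made. Cidea was called lower with estradiol in XX (-3.34, adjusted p = 0.00177), XXSry (-2.99, adjusted p = 0.0034) and XY-Sry (-3.31, adjusted p = 0.001). In XY- it was -1.86 (adjusted p = 0.0805), while Ppargc1a was called there (-1.60, adjusted p = 0.0237). Ucp1 was also called in XY- (bound 10.3-fold lower, adjusted p = 0.0374 by limma), with no estradiol array detected. The share of all probes called lower was 4.41% in XX, 1.29% in XXSry, 0.875% in XY-Sry and 1.05% in XY-. No genotype gave a called member for testosterone minus blank, while 0.116% of all probes were called in XX, 0.171% in XY-, 0.745% in XXSry and 0.212% in XY-Sry. Over both genotypes without Sry, Cidea (-2.60) and Ppargc1a (-1.18) were called for estradiol minus blank (5.1% of all probes called lower), and over both with Sry Cidea (-3.15), Cox8b (-1.14) and Ppargc1a (-1.22) were (4.15%). For testosterone minus blank Cidea was called over the groups with Sry (-1.50, adjusted p = 0.0471, 1.71% of all probes called lower) and no member over those without (0.417% of all probes). Whether an effect differed between genotypes was tested directly. In limma's interactions of testosterone or estradiol with gonad or with sex chromosomes 0 of 7 probes were called, at an unadjusted p under 0.05 too. The intervals are wide, however, since the estradiol by sex chromosome term of Cidea was -0.58 (-1.86 to 0.70). Of all probes, 0.0137% and 0.813% were called for testosterone and estradiol by gonad, and 0% for both terms with sex chromosomes.

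Neither gonad type nor sex chromosomes gave a called member. With Sry minus without Sry, 0 of 7 probes were called by limma and 0 had an unadjusted p under 0.05 (7.34% of all probes called). For Cidea the difference was -0.03 (-0.55 to 0.49). XX minus XY gave 0 of 7 called and 1 with an unadjusted p under 0.05 (0.137% of all probes called), which was Cidea at -0.68 (-1.20 to -0.16, adjusted p = 0.352). Gonad type did move with markers of other tissue: 11 of 11 epithelial probes were lower with Sry (median -3.74) and 4 of 8 adipocyte probes higher (median 0.35), whose part in the members' values was not tested. Both member counts were 0 in the 14 alternatives and without any 1 of the 55 arrays.

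Slides could be set aside in part, because slides 2 and 8 each held every genotype once with a blank and once with an estradiol capsule. In these 8 matched pairs Cidea was lower with estradiol in 8, by 0.90 to 4.89, and Cox8b in 8, by 0.33 to 1.32. Ppargc1a was lower in 7 of 8, with XY-Sry on slide 8 the exception (0.15 higher). Ucp1 was lower in 6 of 8. In the other 2, XX and XY- on slide 2, neither array of the pair detected it. The Cpt1b probes were lower in 7 (ILMN_2709240) and 5 (ILMN_1227666) of 8, and Cox7a1 in 5. Averaged over a slide, the estradiol minus blank differences on slides 2 and 8 were -1.97 and -3.10 for Cidea, -1.07 and -0.57 for Ppargc1a, and -0.83 and -0.66 for Cox8b. For testosterone and blank, 3 pairs with 1 array of each capsule existed on slides 3 and 6, all of them without Sry. XXSry on slide 3 and XY-Sry on slide 6 had more than 1 blank array and were not paired. Ucp1 read 12.40 with testosterone and 10.12 with blank in XY- on slide 3, 6.93 and 6.80 in XX on slide 6, and 4.87 (not detected) and 13.18 in XY- on slide 6, so these pairs did not share a direction.

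**Figure D2:**
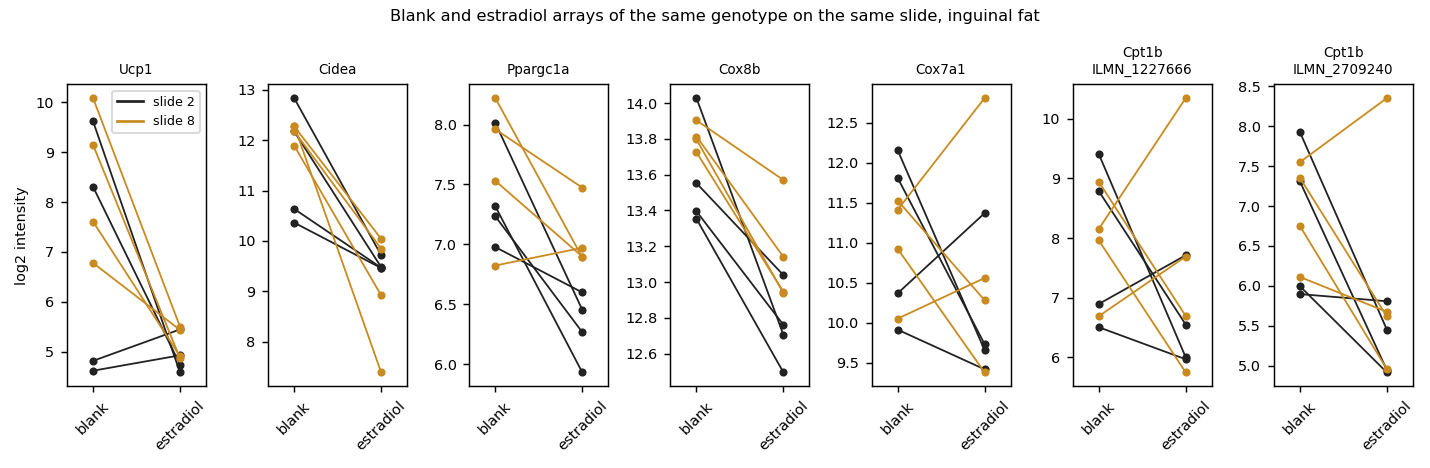
Blank and estradiol arrays of the same genotype on the same slide, joined by a line, for the 7 tested probes in inguinal fat (log2 intensity, each panel with its own axis). Cidea and Cox8b fall along all 8 lines, whereas Cox7a1 and Cpt1b ILMN_1227666 fall along 5.

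The spread between arrays of a group was large for most members. The SD within groups was 1.87 for Ucp1, above that of 98.8% of the tested probes, 1.62 for Cox7a1, 1.63 and 1.40 for the Cpt1b probes, 0.996 for Cidea, 0.71 for Ppargc1a and 0.63 for Cox8b. The median over all tested probes was 0.42. For Ucp1 this SD was 2.31 with blank, 2.28 with testosterone and 0.39 with estradiol, where it was not detected. Arrays of a group that were high in Ucp1 were also high in Cidea, with a Pearson's r of 0.65 and a Spearman's rho of 0.48 over 55 deviations from the group mean (permutation within groups, adjusted p = 5.2e-05 and 0.00271 over 13 relations). Cox8b (r = 0.49, rho = 0.39), Cox7a1 (0.47, 0.38), Cpt1b (0.51, 0.43 and 0.45, 0.38) and Ppargc1a (0.36, 0.30) followed with adjusted permutation p for r from 0.00154 to 0.0116 and for rho from 0.00981 to 0.0454. With slide removed r was 0.65 for Cidea and 0.30 for Ppargc1a. Without the 2 arrays farthest out in Ucp1 (XY- T replicate 2 and XY- B replicate 3) r was 0.60 for Cidea and 0.24 for Ppargc1a. Over the 36 blank and testosterone arrays, of which 20 detected Ucp1, Cidea reached r = 0.81. No other array of the 55 detected Ucp1, and undetected arrays entered all these correlations at their measured values.

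Skeletal muscle transcripts moved with some members and not detectably with others. The deviations of the muscle score correlated with Cpt1b (r = 0.90 and 0.82, rho = 0.92 and 0.86), Cox7a1 (0.88, 0.91), Cox8b (0.74, 0.78) and Ppargc1a (0.68, 0.72), each with an adjusted permutation p of at most 6.5e-05, near the smallest that 100000 resamples can give. For Ucp1 r was 0.26 (rho = 0.20, adjusted permutation p = 0.085 and 0.158), and for Cidea 0.24 (rho = 0.22, adjusted permutation p = 0.129 and 0.156). Without the 2 arrays farthest out in the muscle score (XXSry T replicate 2 and XY-Sry T replicate 1) r ranged from 0.73 to 0.89 for the former group, and was 0.26 and 0.28 for Ucp1 and Cidea. The score ran from -2.82 to 2.56 in blank, -3.25 to 2.91 in testosterone and -4.43 to 2.60 in estradiol arrays. For estradiol minus blank 0 of its 20 probes were called, beside 20.5% of all probes. Their median was -1.004, against -0.02 over all tested probes. With the score as a covariate the estradiol minus blank difference was -2.77 for Cidea, -0.99 for Ppargc1a and -0.69 for Cox8b, all still called. Ucp1 was also called by limma (adjusted p = 0.00724), but no estradiol array detected it, so this p sets blank arrays against the floor. The difference was -0.45 for Cox7a1 and -0.38 for Cpt1b ILMN_1227666, and -0.79 for ILMN_2709240, of which only the last was called (adjusted p = 0.0318). With the score, Cox8b was also called for testosterone minus blank (-0.77, adjusted p = 0.000439). Slide and score together left Cidea, Ppargc1a and Cox8b called for estradiol minus blank, and Ucp1 not (adjusted p = 0.0703). Other tissues' markers are given as values only. For estradiol minus blank 20.5% of all probes were called either way and 10.1% lower. Beside that, 0 of 12 liver probes and 0 of 15 lymph node probes were called, 2 of 11 epithelial probes were higher, and 3 of 8 adipocyte probes were lower, with a list median of -0.35. Their part in the members' differences was not tested beyond the covariate fits.

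**Figure D3:**
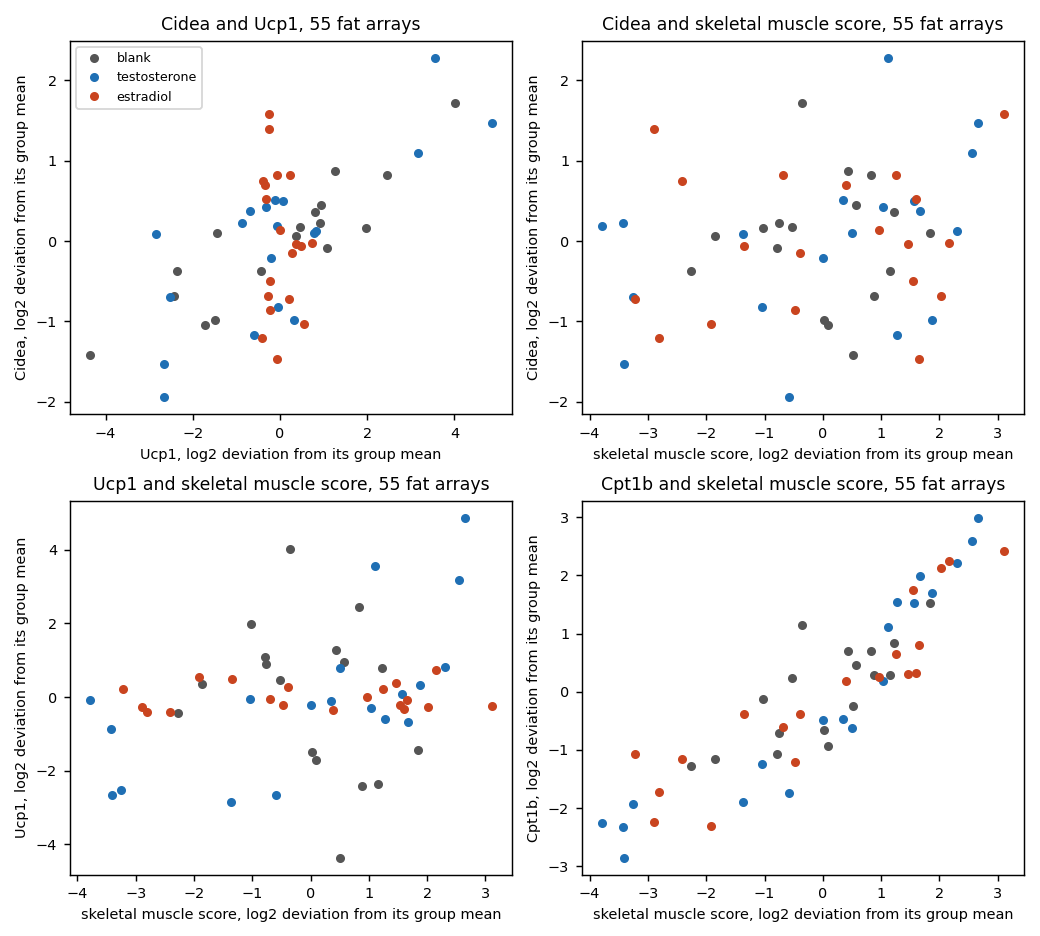
Deviation of each of the 55 fat arrays from its group mean (log2) for Cidea against Ucp1, and for Cidea, Ucp1 and Cpt1b (ILMN_1227666) against the skeletal muscle score, coloured by capsule. Cpt1b follows the score closely (r = 0.90), while Cidea (r = 0.24) and Ucp1 (r = 0.26) scatter.

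The 6 other probes most like Ucp1 over the 55 deviations were Otop1 (r = 0.72), Acot11 (0.67 and 0.62 with its pair of probes), Slc25a20 (0.66), Ccrn4l (now Noct, 0.58) and Cox5a (0.57), and Cidea would rank 4 among all 14635 other tested probes. Otop1, the highest of them, was not called for estradiol minus blank (-0.08, adjusted p = 0.884). Acot11 was called with its second probe (ILMN_1227579, -0.83, adjusted p = 0.00984), Slc25a20 at -0.35 (adjusted p = 0.00818), Ccrn4l at -0.77 (adjusted p = 6.86e-06) and Cox5a at -0.25 (adjusted p = 0.0353). Over the 12 group means, probes among the most alike were 2610036D13Rik (now Tti1), Ubr1, 2310005E10Rik (now Akr1b10), 2810441C07Rik (now Arhgef10l) and Stard7, with r from 0.93 to 0.90. In 5 of the 12 groups no array detected Ucp1, so those group means are floor values. Arrays share slides and groups share the hormone contrast, so the r values of both measures rank likeness only.

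Other genes of the pathway were taken from lists by role. Among 15 tested brown fat regulators, 2 rose and 3 fell with estradiol against blank (20.5% of all probes called): Irf4, a transcription factor of the thermogenic programme (0.80 ± 0.16 SE), and Tle3, a corepressor that opposes Prdm16 (0.91 ± 0.20), rose, and Esrra, an orphan receptor partner of Ppargc1a (-0.33 ± 0.08), fell among the 3 with the smallest p. Ppara, Esrrg and Foxc2 were not tested. With testosterone 1 of the 15 fell (4.75% of all probes called, 2.59% lower), which was Irf4 (-0.60 ± 0.16), in the opposite direction to estradiol. Of 16 receptors and secreted signals 2 rose and 4 fell with estradiol, beside 20.5% of all probes called (list median -0.10). Pgr, the progesterone receptor and a classical estrogen target (0.87 ± 0.12), and Metrnl (1.08 ± 0.19) rose, and Nrg4, a signal secreted by brown fat (-1.02 ± 0.16), fell. With testosterone 2 fell, beside 4.75% of all probes called: Nrg4 (-0.73 ± 0.16) and the estrogen receptor Esr1 (-0.77 ± 0.18), which also fell with estradiol (-0.83 ± 0.18).

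The list of fuel use and heat production moved in 1 direction among its calls. With estradiol 11 of 23 tested genes fell and none rose (list median -0.35, against -0.02 over all, with 10.1% of all probes called lower). The smallest p belonged to Cpt2, the inner-membrane partner of Cpt1b (-0.58 ± 0.10), Kcnk3, a potassium channel (-1.46 ± 0.26), and Gpd2, the mitochondrial glycerol phosphate dehydrogenase (-0.69 ± 0.14). With testosterone 5 of 23 fell, led by Gpd2 (-0.61 ± 0.14), Kcnk3 (-1.05 ± 0.26) and Letmd1 (-0.38 ± 0.10), and none rose (median -0.25, with 2.59% of all probes called lower). Of 11 depot markers 3 fell with estradiol, P2rx5 (-0.98 ± 0.15), Cited1 (-0.72 ± 0.14) and Slc36a2 (-0.54 ± 0.15), beside 10.1% of all probes called lower (list median -0.10). P2rx5 (-0.74 ± 0.15) and Slc36a2 (-0.54 ± 0.15) also fell with testosterone, 2 of 11 beside 2.59% of all probes. Of 14 white adipocyte genes 7 fell and 1 rose with estradiol (list median -0.33), beside 10.1% of all probes called lower and 20.5% either way. Decreases were thus not limited to the members and the brown-fat lists: in the white list Pnpla2 and Slc7a10 fell (-0.37 ± 0.07 and -0.71 ± 0.14), as did Psat1 (-0.46 ± 0.13). With testosterone only Agt rose (2.22 ± 0.39), and none of the 14 fell, beside 4.75% of all probes called either way and 2.59% lower. All adjusted p in these lists are from limma over all 14636 probes, and each list but the white one also holds 3 to 5 genes that were not tested.

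The remaining members were at or near the floor in fat. Dio2 ran from 4.47 to 5.14 and Prdm16 from 4.47 to 5.56 over 55 arrays, so no difference could be measured. Elovl3, a fatty acid elongase of brown fat, was detected on XY- B replicate 4 alone, at 6.06, where the other 4 arrays of that group lay between 4.55 and 4.67. The next highest fat array was XY- T replicate 2 at 5.60, not detected. These are also the fat arrays with the highest and second-highest Ucp1, 13.18 and 12.40.

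In liver the same Elovl3 probe followed testosterone. It was detected on 20 of 20 testosterone arrays, 0 of 20 blank arrays and 1 of 20 estradiol arrays. Testosterone arrays read 6.90, 6.55, 7.44, 6.31 and 8.71 in XX, 6.31, 6.91, 6.89, 7.79 and 6.96 in XY-, 6.66, 7.19, 8.76, 7.36 and 8.36 in XXSry, and 6.18, 7.49, 6.41, 7.78 and 8.12 in XY-Sry. Blank arrays lay between 4.35 and 4.71, below every testosterone array. Elovl3 was at least 3.30-fold higher with testosterone, and by genotype at least 3.16-fold higher in XX, 2.79 in XY-, 4.49 in XXSry and 3.01 in XY-Sry. The means were 7.25 ± 0.80 (SD, n = 20) with testosterone and 4.57 ± 0.09 (n = 20) with blank. Elovl3 passed the filter through its testosterone arrays, so the size of the difference is given only as the bound. The fit called it higher (adjusted p = 5.59e-18 by limma, with 8.17% of 11317 tested liver probes called higher), and with slide as a fixed block too (adjusted p = 8.83e-16). Both p set testosterone arrays against undetected blank arrays, so they measure no blank level. Estradiol against blank was not called (adjusted p = 0.631, 6.82% of all probes called), and with both near background no fold is given. The detected estradiol array was XY- E replicate 5 at 7.25, and the other 19 lay between 4.32 and 5.32. Its hormone label is in doubt, since Hsd3b5, a testosterone-responsive liver gene, read 12.26 on it, within the testosterone arrays (11.15 to 12.95) and above every other estradiol array, of which the highest were those of XXSry E (8.47 to 11.19). Without this array the adjusted p was 2.5e-21 for testosterone and 0.904 for estradiol against blank. Neither the contrast of groups with and without Sry (adjusted p = 0.955, 3.4% of all probes called) nor XX minus XY (adjusted p = 0.999, 0.186% called) was called, and none of the 4 interactions was (0.124%, 0.0795%, 0% and 0% of all liver probes). The liver array XY-Sry T replicate 5 carried Xist at 6.63, against 4.43 to 4.64 in the other XY-Sry T arrays, and Eif2s3y at 4.53, against 6.84 to 8.14, so its sex chromosome label is in doubt. Without any 1 of the 60 liver arrays the testosterone call was kept (adjusted p at most 2.88e-17). Of the other members, Ppargc1a was detected on 60 and Cox7a1 on 59 liver arrays, and the remaining 7 probes on none.

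**Figure D4:**
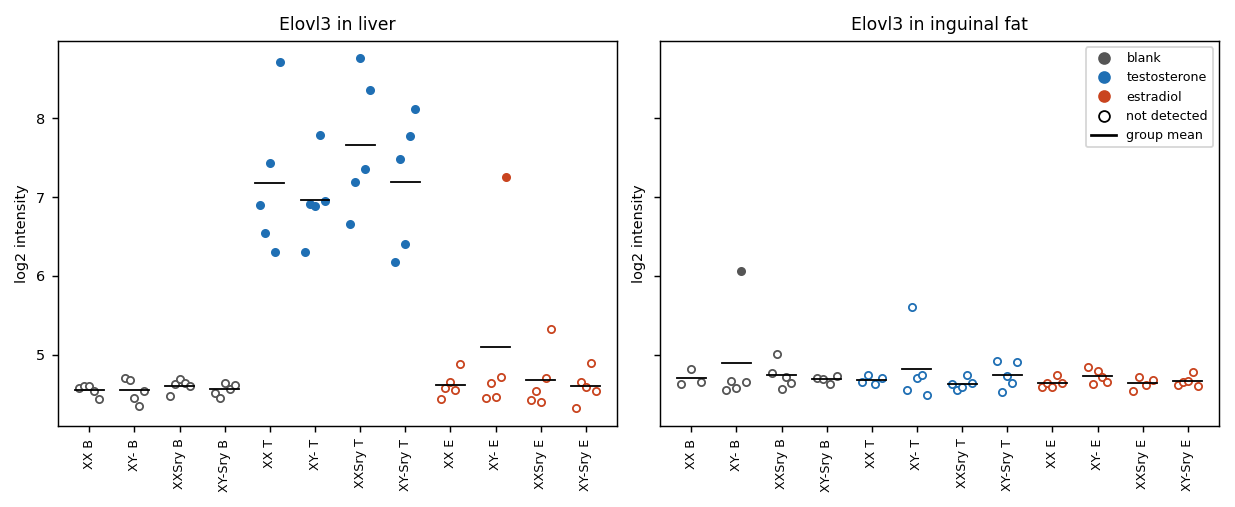
Elovl3 on each liver array (left) and inguinal fat array (right), by genotype and capsule, in normalised log2 intensity. Points are arrays, open points were not detected and lines are group means. In liver all 20 testosterone arrays lie at 6.18 or above and all 20 blank arrays at 4.71 or below, and XY- E replicate 5 lies among the former.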

How the data were processed

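Liver and inguinal fat RNA was read on 1-colour Illumina BeadChips. The deposited intensity (mean bead signal) and detection p-value of each probe and array were used, per the file headers. The submitters' processing notes name lumi, whose version and role are not given in the sources used here. The deposited intensities show no normalisation between arrays (array medians from 129.9 to 230.5 in fat). The deposited standard errors of the bead signal (55 fat and 60 liver columns) were not used.

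In R 4.3.3 with limma 3.58.1, each tissue was background-corrected (normexp, controls inferred from the detection p-values), offset by 16, quantile normalised and taken to log2, which understates differences of dim probes. Probes with a detection p under 0.01 on at least 3 fat or 5 liver arrays were tested (14636 and 11317). A mean per group was fitted to all arrays of a tissue with lmFit and eBayes. Contrasts weight groups equally, and p was adjusted by Benjamini-Hochberg within each of 24 contrasts per tissue, with 0.05 as the threshold. The number of arrays limits the precision. The fit was tested on simulated data.

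Slides are numbered within each tissue. Replicate numbers only name arrays. Every slide lacked at least 1 capsule type, so hormone contrasts are partly confounded with slide. Alternatives covered background, offset, centring, filter, slide, array weights, marker scores, the disputed label and leaving out each array. The slide block joined with the muscle score, correlations over blank and testosterone arrays alone, and leaving out 4 fat arrays of doubtful sex chromosome markers, were added after seeing the data.

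Members, gene lists and tests were chosen with earlier results of these data known. Named genes were all members, per list the up to 3 called genes with the smallest adjusted p for each hormone, and the 6 probes most like Ucp1 by each measure, of which 1 is not reported here. Current symbols and promoters come from RefSeq (GRCm38.p6). Probe sequences were not used here.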

Additional observations from a re-analysis of the deposited data

Results flagged for a closer look

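In 77 groups of 4 or 5 arrays with at least 1 detected array (fat members, and Elovl3 in liver), 4 held an array far from the rest of its group by Dixon's test. Chance flags about 1 in 20 groups, so 4 of 77 is near what chance gives. Cidea in fat was low in XY-Sry T replicate 5, at 10.16 against 11.09 to 11.36 in the other 4 arrays. Cox8b in fat was low in XY-Sry E replicate 1, at 11.52 against 12.92 to 13.46. Elovl3 in fat was high in XY- B replicate 4, at 6.06 against 4.55 to 4.67. Elovl3 in liver was high in XY- E replicate 5, at 7.25 against 4.45 to 4.71.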

How the results depend on the processing

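The estradiol minus blank calls of Cidea, Ppargc1a and Cox8b held in all 14 alternatives and without any 1 of the 55 arrays. Cidea ranged from -2.50 to -3.08, and the cause of changes below was not tested. For estradiol minus blank, 3 member probes instead of 5 were called with slide as a fixed block, and likewise with slide and the muscle score. For testosterone minus blank, 0 instead of 1 were called with median centring, no filter, or slide as a fixed or random block, and 2 with array weights, the muscle score, or the muscle, lymph node and liver scores. Cidea lost this call in 5 of the 14 alternatives and Cox8b gained one in 4, so a count of 1 need not be Cidea. Calls of hormone effects within a genotype or gonad line went from 11 to 6 with slide fixed, 7 with slide and the muscle score and 21 with array weights. The shares of all probes called in each of these settings are not given beside the counts. The counts therefore do not show whether members changed more than other probes. Elovl3 in liver, near background in both groups, reversed for estradiol minus blank with slide fixed (fitted -0.098, adjusted p = 0.829).

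Uncalled differences near 0 changed sign. Cox7a1 for testosterone minus blank (-0.01) became 0.063 without background correction, 0.0019 with median centring, 0.011 with an offset of 50, 0.048 and 0.011 with slide fixed and random, 0.075 with array weights, 0.024 with XX E replicate 1 taken as testosterone, 0.049 without the 4 arrays of doubtful sex chromosome markers and 0.18 with the epithelium score. Cpt1b ILMN_2709240 became 0.15 without background correction, 0.11 with an offset of 50, 0.065 without the 4 doubtful arrays and 0.12 with the epithelium score. Ppargc1a (0.02) became -0.041 with median centring, -0.025 with XX E replicate 1 taken as testosterone, -0.026 without the 4 doubtful arrays, -0.11 with the muscle score and -0.18 with 3 scores. Cpt1b ILMN_1227666 (0.36) became -0.018 with the muscle score, -0.011 with 3 scores and -0.082 with slide and muscle. Cox8b for estradiol minus testosterone (-0.25) became 0.080 with the muscle score and 0.062 with 3 scores.

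Leaving out each array in turn gave 4 to 5 member calls for estradiol minus blank, 0 to 2 for testosterone minus blank, 2 to 5 for estradiol minus testosterone and 8 to 13 within genotypes or gonad lines. Cidea lost its testosterone call without replicate 4 of XXSry B, XY-Sry B, XY- B, XY- T or XX T, replicate 2 or 3 of XX B, replicate 3 of XXSry T or replicate 1 of XX T (adjusted p from 0.00759 to 0.0820 over all arrays left out). Cox8b gained one without any 1 of 9 arrays (replicates 2 and 4 of XY-Sry T and of XX T, replicates 1 and 2 of XY- T, replicate 1 of XY-Sry E and of XY- B, and replicate 3 of XX E). Cpt1b ILMN_2709240 lost its estradiol minus blank call without any 1 of 15 arrays (adjusted p up to 0.0779): XX B 2 or 3, XX E 2 or 3, XY- B 2 or 4, XY- E 1, 2 or 4, XXSry B 3, XXSry E 3, XY-Sry B 2 or 4, or XY-Sry E 1 or 3. Its estradiol minus testosterone call was lost without any 1 of 16 (up to 0.0753), while ILMN_1227666 gained one without any 1 of 11 and Cox7a1 without XX T replicate 1 (-1.38, adjusted p = 0.0334). For testosterone minus blank, Cox7a1 ranged from -0.20 to 0.31, Cpt1b ILMN_2709240 from -0.19 to 0.22 and Ppargc1a from -0.076 to 0.12. Liver Elovl3 for XX minus XY ranged from -0.0090 to 0.14. No paired analysis by replicate number was possible because the labels give none. Pairs were formed by slide and genotype only. Ucp1, Elovl3, Dio2 and Prdm16 are limited by signal near background, where levels have only bounds. Cpt1b ILMN_2709240 was likewise undetected on most estradiol arrays.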
